A study of Sus scrofa with 8 samples.

Results

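The E28 myotome was compared with E21 somites in 4 of the 8 libraries of a single-cell RNA-seq series of pig embryos. Somites were sampled on embryonic day 21 (E21) and the myotome on day 28 (E28), each once in Tibetan pigs (ZZ) and once in a Duroc by Tibetan cross (DZ); the labels name no transgene or treatment. Each library pooled embryos of a single sow, and the tissue was released with collagenase and run on a 10x Chromium system with 3′ v3 chemistry. The barcodes with at least 200 genes, at most 30000 UMIs (unique molecular identifiers, each standing for 1 captured RNA molecule) and at most 10% of UMIs on 13 mitochondrial genes were kept, which gave 44846 of the 82394 barcodes of the series: 11610 for E21-ZZ, 10194 for E21-DZ, 10869 for E28-ZZ and 12173 for E28-DZ. The UMIs of every gene were summed over these barcodes in each library. Since somites were taken at E21 and the myotome at E28, tissue and stage cannot be told apart, and since each stage of a breed is a single pool, p-values measure the disagreement of the breeds after a common breed shift and not the spread between sows.

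Somites are paired blocks of mesoderm along the neural tube. Their dorsal part, the dermomyotome, holds PAX3 and PAX7 progenitors, which enter the myotome, switch on the myogenic regulatory factors MYF5, MYOD1, MYF6 and MYOG, fuse into multinucleated fibres and build sarcomeres. The ventral part, the sclerotome, is patterned by PAX1 and PAX9 and forms the cartilage of the vertebrae and ribs, while tendon progenitors arise at the border of both.

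The 4 summed libraries held 49413951 to 53303525 UMIs, and the median barcode held 3496 to 4654.5 UMIs. The libraries shared 31 to 43 barcode sequences per pair. Some libraries stood apart. E28-ZZ had 0 UMIs of the Y-linked gene EIF1AY, which allows a level of up to 0.0589 CPM (counts scaled to the library total after TMM normalization), against 12.5 CPM in E21-ZZ, 22.5 CPM in E21-DZ and 13.1 CPM in E28-DZ; the sex of the embryos is not given in the labels. E28-DZ had the highest level of the immediate-early gene FOS, 2336 CPM against 312 to 594 CPM in the other 3, and E21-ZZ the highest level of the neuronal tubulin gene TUBB3, 1026 CPM against 31.2 to 351 CPM. The part of these differences in the results was not tested.

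To find the genes that differed between the stages, the summed counts of all 8 libraries were tested with edgeR's quasi-likelihood test. The contrast was E28 minus E21, with the breed as a block and Benjamini-Hochberg adjustment over all genes. The E16 and E18 libraries of the series thus entered the estimate of the spread behind each p-value. Of 15295 genes tested, 706 were higher and 673 lower at E28 at an adjusted p under 0.05, which is 4.62% and 4.4% of the genes tested, and 9.02% for both directions. These genes are said below to have risen or fallen. Without regard to the test, every E28 library was above every E21 library for 25.8% of genes and below for 25.6%. The calls leaned on single libraries: 516 genes were called without E21-ZZ, 990 without E21-DZ, 717 without E28-ZZ and 515 without E28-DZ, and 128 of the 706 higher and 128 of the 673 lower genes were called in all 4 of these fits. In the fit on the 4 libraries alone, which leaves 1 residual degree of freedom, 306 genes were called. In summed libraries, fewer cells of a type and less RNA per cell cannot be told apart.

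Connective tissue and cartilage genes were higher at E28, and genes of the neural tube and of neurons lower. Cartilage matrix, fibrous connective tissue and tendon had 16 of 27, 18 of 38 and 6 of 13 tested members called higher, beside 4.62% of all genes, and none lower. DESeq2 called 1 cartilage matrix gene and none of the others lower, beside 1164 of 14701 over all genes. The lists were chosen with earlier results of these data known. Counts and medians of lists, here and below, are therefore descriptions and not tests. FMOD and COL11A1 count in both the cartilage matrix and tendon lists, and COL14A1 in both the fibrous and tendon lists. In contrast, 9 of 23 neural tube and 11 of 25 neuron genes were called lower, beside 4.4% of all genes. The median log2 fold change was 1.34 for cartilage matrix, 1.11 for fibrous connective tissue, 1.57 for tendon, -1.61 for neural tube progenitors and -2.58 for neurons, beside -0.0078 over all genes tested. For neural crest and glia it was 0.006, with 1 of 20 tested members called higher and 4 lower. FABP7, lower in this list, is also counted with the neural tube genes. The muscle lists had medians of 0.41 for progenitor regulators, 0.44 for differentiation regulators and 0.61 for sarcomere genes.

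**Figure D1:**
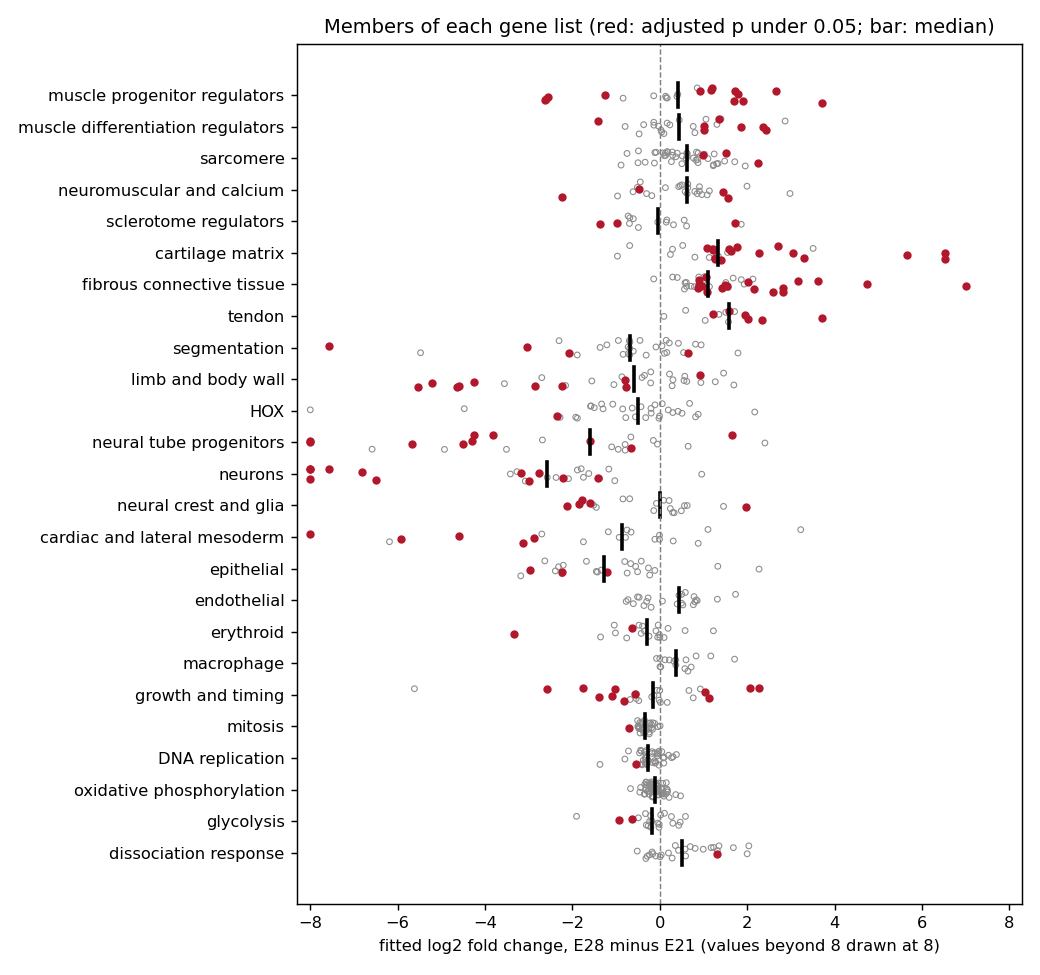
Fitted log2 fold change of E28 minus E21 for the tested members of each of the 25 gene lists, with 1 point per gene, called genes in red and the list median as a black bar. Cartilage matrix, fibrous connective tissue and tendon lie mostly to the right of 0, with medians of 1.34, 1.11 and 1.57, and the neuron list lies mostly to the left, with a median of -2.58. Points of genes with 0 UMIs at a stage depend on the fit and carry no exact size.

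The regulators of muscle progenitors moved in both directions. Of 21 tested members, 9 rose (4.62% of all genes did) and 4 fell (4.4% of all genes did). MSC, the basic helix-loop-helix factor musculin, was at 8.81 CPM in E21-ZZ, 8.92 CPM in E21-DZ, 59.5 CPM in E28-ZZ and 198 CPM in E28-DZ. Both E28 libraries lay far above both E21 libraries, and E28-DZ was the highest. The fitted log2 fold change was 3.72 (SE 0.45), with an adjusted p of 0.00907 in edgeR's quasi-likelihood test. FGFR4, the fibroblast growth factor receptor typical of embryonic myoblasts, was at 4.72 and 4.35 CPM in the E21-ZZ and E21-DZ libraries and at 24.9 and 32.5 CPM in E28-ZZ and E28-DZ. The stages did not overlap, and FGFR4 rose by 2.66 (SE 0.28) on the log2 scale. MYF5, the earliest of the myogenic regulatory factors to be switched on, was at 35.6 CPM in E21-ZZ, 38.0 CPM in E21-DZ, 75.1 CPM in E28-ZZ and 171 CPM in E28-DZ. It rose by 1.70 (SE 0.36; edgeR, adjusted p 0.0329), and E28-DZ was again the highest. DMRT2, EYA1, SIX2 and MEOX2 rose by 1.17 to 1.91 on the log2 scale in whole libraries. Levels in barcodes gated on muscle genes, whose shares are given further on, are CPM scaled to the UMIs of those barcodes, without TMM. In these barcodes DMRT2 overlapped between the stages (26.0 and 19.9 CPM at E21, 18.5 and 22.8 CPM at E28), whereas EYA1, SIX2 and MEOX2 were higher in both E28 libraries there too. MEOX2 was at 12.70 and 12.82 CPM in these barcodes at E21 and 23.87 and 23.96 CPM at E28, beside 24.29 and 29.96 CPM at E21 and 86.1 and 92.4 CPM at E28 in whole libraries.

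The 4 regulators that fell were PAX3, CXCR4, DACH1 and DACH2. PAX3, the progenitor factor of the dermomyotome, was at 32.6 CPM in E21-ZZ, 21.6 CPM in E21-DZ, 11.7 CPM in E28-ZZ and 10.9 CPM in E28-DZ. The E28 libraries were close to each other and below both E21 libraries, and the fitted change was -1.26 (SE 0.28; edgeR, adjusted p 0.0412). CXCR4, a chemokine receptor of migrating precursors that other cells also carry, was at 79.8 and 38.0 CPM at E21 and 9.29 and 9.38 CPM at E28, and DACH1, a cofactor that works with EYA proteins, was at 48.8 and 39.1 CPM at E21 and 8.91 and 6.14 CPM at E28. Their fitted changes were -2.61 (SE 0.34) and -2.55 (SE 0.22). In muscle-gated barcodes CXCR4 overlapped between the stages, at 21.7 and 9.86 CPM at E21 and 21.9 and 17.6 CPM at E28. MET, the receptor of migrating muscle precursors, was at 7.34 and 8.13 CPM at E21 and 8.23 and 9.19 CPM at E28 in whole libraries, not called (edgeR, adjusted p 0.630). PAX3 and DACH1 are also used in the neural tube, and 9 of 23 tested neural tube genes fell in the same libraries (4.4% of all genes did). In muscle-gated barcodes PAX3 was at 59.2 and 58.3 CPM at E21 and 35.9 and 25.5 CPM at E28. DACH1 was there at 16.7 and 14.8 CPM at E21 and 5.99 and 3.96 CPM at E28. The part of neural tube cells in the falls of PAX3 and DACH1 was not tested. PAX7, which marks the progenitors that persist in fetal muscle, was at 18.6 and 19.9 CPM at E21 and at 32.4 and 37.7 CPM at E28. The stages did not overlap, but the adjusted p was 0.0602. Without E28-DZ, 5 progenitor regulators were called higher and 2 lower. MSC, DMRT2, MEOX2, FGFR4, DACH1 and CXCR4 were called with any of the 4 libraries left out, and PAX3 and MYF5 in 1 of these 4 fits.

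**Figure D2:**
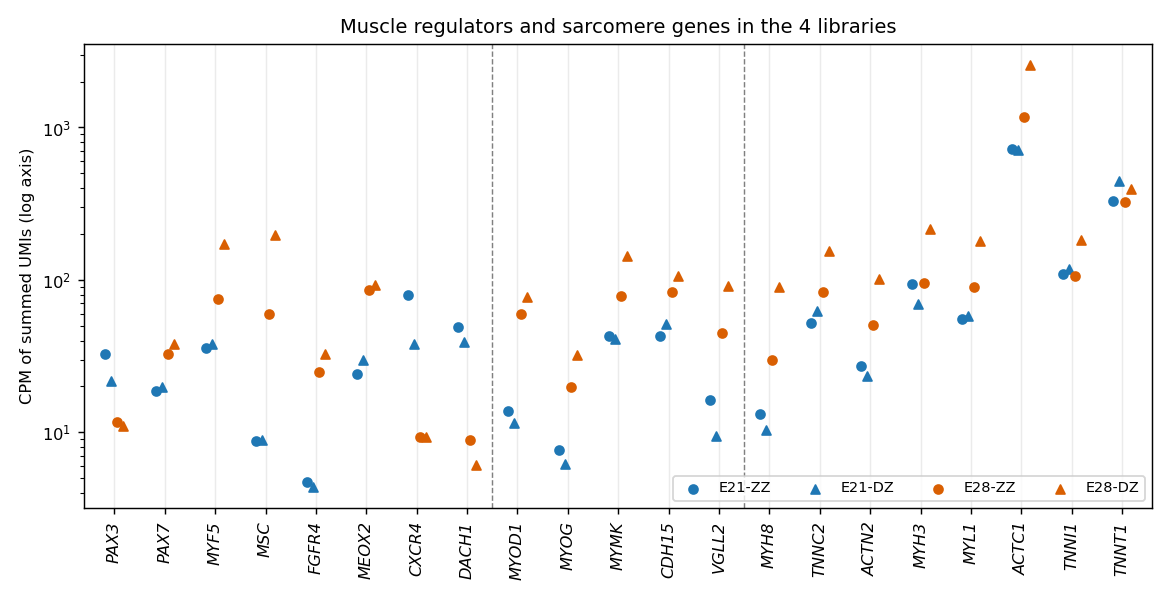
Level of 21 muscle genes in the 4 libraries, in CPM of summed UMIs on a log axis (blue E21, orange E28; circles ZZ, triangles DZ), with progenitor regulators on the left, differentiation regulators in the middle and sarcomere genes on the right. MYOD1 lies at 13.7 and 11.5 CPM at E21 and at 59.8 and 77.2 CPM at E28, PAX3 goes the other way, and TNNT1 overlaps between the stages.

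Among regulators of muscle differentiation, 6 of 25 tested members rose (MYOD1, VGLL2, MYOG, MYMK, CDH15 and CAP2) and SORBS2 fell, beside 4.62% and 4.4% of all genes. In the fit on the 4 libraries alone 3 were called higher, and with barcodes limited to 5% mitochondrial UMIs 2. The 250 bases before the RefSeq gene start of MYOD1, MYOG and MYMK, a commitment factor, a differentiation factor and a fusion protein, are shown because these genes moved together and the myogenic factors bind E-boxes, written CANNTG. They are from the Sscrofa11.1 assembly on the coding strand, and the capitals mark CANNTG.
MYOD1 (chr2:41424237-41424486, minus strand): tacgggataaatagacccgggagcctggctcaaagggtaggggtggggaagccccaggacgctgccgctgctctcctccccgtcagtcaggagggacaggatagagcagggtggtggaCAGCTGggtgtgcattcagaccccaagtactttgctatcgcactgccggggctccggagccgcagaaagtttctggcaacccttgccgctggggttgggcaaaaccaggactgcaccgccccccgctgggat
MYOG (chr9:113785313-113785562, minus strand): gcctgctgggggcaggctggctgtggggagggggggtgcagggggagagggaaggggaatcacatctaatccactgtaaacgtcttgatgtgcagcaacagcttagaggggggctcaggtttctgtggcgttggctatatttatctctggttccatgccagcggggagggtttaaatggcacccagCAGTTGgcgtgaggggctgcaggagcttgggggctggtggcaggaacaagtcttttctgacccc
MYMK (chr1:273111722-273111971, minus strand): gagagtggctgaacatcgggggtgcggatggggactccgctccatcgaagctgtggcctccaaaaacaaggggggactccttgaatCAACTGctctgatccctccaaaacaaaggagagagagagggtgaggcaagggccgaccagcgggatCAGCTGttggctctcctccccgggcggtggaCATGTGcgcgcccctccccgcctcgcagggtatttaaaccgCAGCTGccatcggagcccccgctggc

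CAGCTG, which CANNTG includes, began 132 bases before the start of MYOD1 and 98 and 26 bases before that of MYMK. MYOG held CAGTTG at 64 bases. Both strands were searched in the windows of 12490 tested genes with a RefSeq start, of which 58.1% held CANNTG and 12.6% held CAGCTG. Of the 10 called-higher genes of muscle differentiation, sarcomere and neuromuscular function with a window, 7 held CANNTG and 2, MYOD1 and MYMK, held CAGCTG. VGLL2, TNNC2 and JSRP1 held no CANNTG. A match describes the letters and is not evidence of binding.

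MYOD1 was at 13.7 CPM in E21-ZZ, 11.5 CPM in E21-DZ, 59.8 CPM in E28-ZZ and 77.2 CPM in E28-DZ. The breeds were alike at either stage, and both E28 libraries lay above both E21 libraries, with a fitted log2 fold change of 2.43 (SE 0.19; edgeR, adjusted p 0.00255). MYOG was at 7.64 and 6.17 CPM at E21 and 19.7 and 32.3 CPM at E28, a rise of 1.86 (SE 0.29; edgeR, adjusted p 0.0149). MYMK (myomaker), the membrane protein that lets myoblasts fuse, was at 42.9 and 41.2 CPM at E21 and 78.9 and 144 CPM at E28, and rose by 1.36 (SE 0.25). CDH15, the cadherin of muscle cells, was at 42.7 and 51.5 CPM at E21 and 83.5 and 107 CPM at E28, and rose by 1.01 (SE 0.13). For all of them the stages did not overlap. VGLL2, a cofactor of TEAD proteins in muscle, rose by 2.37 (SE 0.42), with 16.4 and 9.46 CPM at E21 and 45.1 and 91.3 CPM at E28. MYF6 was at 5.00 and 3.28 CPM at E21 and 5.48 and 16.9 CPM at E28 and was not called (adjusted p 0.17), and the MEF2A, MEF2C and MEF2D levels overlapped between the stages in whole libraries. In muscle-gated barcodes all 3 were lower in both E28 libraries, MEF2C at 262 and 312 CPM against 143.3 and 188 CPM. Without E21-DZ 3 members were called higher and without E28-DZ 2 (MYOD1 and CDH15, which were called in every such fit), and MYMK was called in 1 of the 4 fits.

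Of 44 tested sarcomere genes, 3 rose and none fell in edgeR's fit, beside 4.62% and 4.4% of all genes. An unadjusted p under 0.05 in that fit was reached by 19, beside 4037 of 15295 over all genes. DESeq2 called 10 higher and 1 lower, beside 1252 and 1164 of 14701 over all genes. The 3 that rose in edgeR's fit were MYH8, the perinatal myosin heavy chain, TNNC2, the fast troponin C, and ACTN2, the α-actinin of the Z-disc. MYH8 was at 13.2 CPM in E21-ZZ, 10.4 CPM in E21-DZ, 29.9 CPM in E28-ZZ and 90.3 CPM in E28-DZ. Both E28 libraries were above E21, E28-DZ by far the most, and the log2 fold change was 2.25 (SE 0.52; edgeR, adjusted p 0.043). TNNC2 and ACTN2 rose by 1.00 (SE 0.17) and 1.51 (SE 0.29). ACTC1, the actin of heart and embryonic skeletal muscle, was at 722 and 712 CPM at E21 and 1180 and 2566 CPM at E28, with no call (adjusted p 0.0765). MYH3, the embryonic myosin heavy chain, was at 94.5 CPM in E21-ZZ, 69.2 CPM in E21-DZ, 95.6 CPM in E28-ZZ and 215 CPM in E28-DZ. Only E28-DZ stood well apart, and the same held for the slow troponin gene TNNI1, at 109, 118, 106 and 183 CPM in that order of libraries. In 21 of the 44 genes both E28 libraries lay above both E21 libraries and in 4 below, beside 25.8% and 25.6% of all genes. The list depended on E28-DZ and E28-ZZ: 10 members were called higher without E28-ZZ, 1 without E21-DZ and none of 44 without E28-DZ, and none of the 3 genes was called in every such fit.

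At the neuromuscular synapse, the acetylcholine receptor subunit gene CHRNB1 was at 18.9 and 19.1 CPM at E21 and 48.0 and 64.0 CPM at E28. The stages did not overlap, and it rose by 1.55 (SE 0.16; edgeR, adjusted p 0.00556). In muscle-gated barcodes, scaled without TMM, it overlapped, at 42.1 and 35.5 CPM at E21 and 42.1 and 51.2 CPM at E28. The E28 levels there were lower than in the whole libraries, which were scaled with TMM. CHRNA1, another subunit, was at 12.6 and 11.9 CPM at E21 and 15.4 and 36.7 CPM at E28 (adjusted p 0.178). CKB, the brain type of creatine kinase, fell from 656 and 391 CPM to 90.6 and 132.8 CPM, a log2 change of -2.23 (SE 0.30), and ATP2A2, the slow and cardiac calcium pump of the sarcoplasmic reticulum, changed by -0.48 (SE 0.10). Of the 27 tested genes of this list, 2 rose (CHRNB1 and JSRP1) and 2 fell, beside 4.62% and 4.4% of all genes. CHRNB1 and CKB were called in all 4 fits without a library and JSRP1 and ATP2A2 in none.

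To separate the share of muscle barcodes from their content, every barcode was thinned to 1500 UMIs and shallower barcodes were left out (108 to 348 per library). UMIs of MYOD1 were then found in 1.31% (ZZ) and 1.15% (DZ) of barcodes at E21, and at E28 in 4.77% for ZZ (exact 95% binomial interval 4.37 to 5.19, counting error only) and 7.13% for DZ (6.67 to 7.61). In barcodes with UMIs of at least 3 of 8 endothelial genes, which should lack it, the share was 1.41% in E28-DZ and 0 in the other 3 libraries. Without thinning, MYOD1 was found in 2.80% and 2.78% of barcodes at E21 and 9.50% and 13.1% at E28. A muscle gate, UMIs of at least 2 of the 7 genes MYOD1, MYOG, MYMK, CDH15, CHRNA1, MYF5 and MYF6, took in 3.49% and 3.35% of barcodes at E21, 7.14% at E28 in ZZ and 13.8% in DZ (7.04%, 8.13%, 14.1% and 21.4% without thinning). The label of the E28 libraries is myotome, but most of their barcodes were outside this gate.

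Within the muscle gate, without thinning, the sarcomere genes did not follow the whole libraries. Of 34 sarcomere genes with at least 20 CPM in a library, both E28 libraries lay below both E21 libraries in 14, above in 3 (MYH8, TNNI2 and CAPZA1), and overlapped in 17. Over all 6216 genes of that level in these barcodes, 17% lay below and 28.4% above. TNNT1, the slow troponin T, was at 3100 and 3203 CPM in gated barcodes at E21 and at 1555 and 1343 CPM at E28, and the slow myosin gene MYH7 was at 143.3 and 87.1 CPM at E21 and 19.4 and 38.3 CPM at E28. Both genes were lower at E28 in each breed. Of 17 progenitor regulators of that level 8 lay above and 2, PAX3 and MEOX1, below, though MEOX2 reached that level at E28 alone and so could not lie below. Among those above were MSC at 47.9 and 43.5 CPM against 251 and 652 CPM, PAX7 at 69.1 and 79.5 CPM against 124 and 117 CPM, and FGFR4 at 39.1 and 26.0 CPM against 70.4 and 97.3 CPM. Of 16 differentiation regulators of that level 4 lay above (CDKN1C, VGLL2, NRK and CAP2) and 7 below, of which KLHL40 and SORBS2 reached it at E21 alone, and of 15 neuromuscular and calcium genes none lay above and 7 below, of which JPH1 reached it at E21 alone. FST, the secreted antagonist of myostatin and activin, was at 38.7 and 33.7 CPM in gated barcodes at E21 and 96.1 and 96.8 CPM at E28. These levels are descriptions without a test, since the gate is a range of barcodes defined by 7 genes of which 5 rose, and 817, 829, 1527 and 2601 barcodes passed it.

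**Figure D3:**
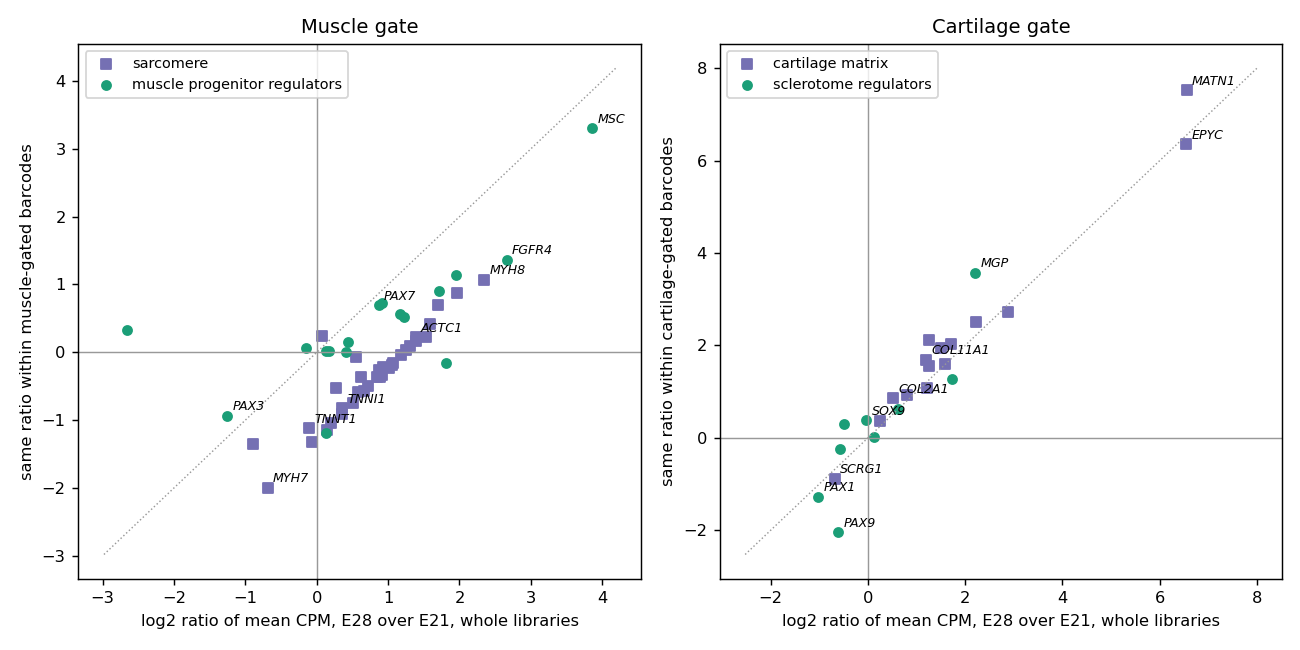
Log2 ratio of the mean CPM of E28 over E21 in whole libraries (horizontal) and within gated barcodes (vertical), for genes outside the gate with at least 20 CPM in a library of the gated barcodes, 1 point per gene. CPM of whole libraries were scaled with TMM and those of gated barcodes without it. In the muscle gate (left) most sarcomere genes lie below 0 on the vertical axis while MSC, FGFR4 and PAX7 lie above it, and in the cartilage gate (right) matrix genes lie near the dotted line of equal ratios, with PAX1 and PAX9 below 0.

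Of 27 tested cartilage matrix genes 16 rose, beside 4.62% of all genes, and 11 were not called. EPYC (epiphycan), a small leucine-rich proteoglycan of growth cartilage, was at 0.172 CPM in E21-ZZ, 0.185 CPM in E21-DZ, 18.3 CPM in E28-ZZ and 15.1 CPM in E28-DZ. It was close to absent at E21 and alike in both breeds at E28, and rose by 6.54 (SE 0.49; edgeR, adjusted p 0.00255). MATN1 (matrilin 1), a protein of the cartilage matrix, was at 0.0345 and 0.130 CPM at E21 and 4.48 and 11.0 CPM at E28. IHH, the ligand that paces the growth of cartilage, had 2 UMIs in all at E21 and 108 at E28, a ratio of 56.9 (exact binomial 95% counting interval 15.4 to 476). COL9A3 and COL11A2, chains of the minor fibrillar and fibril-bound collagens of cartilage, rose by 2.71 (SE 0.38) and 2.27 (SE 0.30), and ACAN, the large proteoglycan aggrecan, by 1.22 (SE 0.19). COL2A1, the main collagen of cartilage, was at 223 and 288 CPM at E21 and 399 and 330 CPM at E28. The stages did not overlap, but it was not called (adjusted p 0.101). In 23 of 27 genes both E28 libraries lay above both E21 libraries, beside 25.8% of all genes, and in 2 they lay below. Without E21-ZZ 8 members were called, and HAPLN1, MATN1, EPYC, SNORC, FMOD, COL27A1 and IHH were called in all 4 fits.

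Among 15 sclerotome regulators, which act upstream of cartilage, 2 fell, PAX1 among them, and MEOX2 rose, beside 4.4% and 4.62% of all genes. PAX1 was at 80.9 CPM in E21-ZZ, 41.8 CPM in E21-DZ, 33.8 CPM in E28-ZZ and 26.6 CPM in E28-DZ. Both E28 libraries were lower than both E21 libraries and E21-ZZ was the highest, with a log2 change of -0.98 (SE 0.20; edgeR, adjusted p 0.0315) that was called in 1 of the 4 fits without a library, and not in the fit without E28-DZ. MEOX2, which the muscle list shares, rose by 1.72 (SE 0.13). SOX9, the master regulator of cartilage, overlapped between the stages at 81.3 and 70.4 CPM at E21 and 92.8 and 55.7 CPM at E28, with a log2 change of -0.05 (SE 0.22).

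A cartilage gate, UMIs of at least 2 of COL9A1, COL9A3, HAPLN1, MATN4 and CNMD, took in 4.50% and 5.25% of thinned barcodes at E21 and 11.95% and 9.19% at E28. Without thinning the shares were 10.5% and 14.6% at E21 and 20.03% and 14.42% at E28, where E28-DZ was slightly below E21-DZ. Of the gate genes, COL9A1, COL9A3, HAPLN1 and CNMD rose in whole libraries, so the shares are not independent of those calls. Shares and levels in this gate are descriptions without a test. In the 1214, 1487, 2177 and 1755 barcodes that passed without thinning, COL2A1 was at 989 and 915 CPM at E21 and 1391 and 2060 CPM at E28. Of the matrix genes outside the gate, COL11A1 was at 207 and 213 CPM against 582 and 774 CPM and WWP2 at 125 and 111 CPM against 142.5 and 161 CPM, while SCRG1 was lower at E28, at 154 and 162 CPM against 104 and 67.0 CPM. In gated barcodes PAX1 was at 275 and 121 CPM at E21 and 83.2 and 80.5 CPM at E28, and PAX9 was at 70.0 and 39.6 CPM at E21 and 11.8 and 14.7 CPM at E28. Both were lower at E28 in gated barcodes as in whole libraries. In whole libraries PAX9 was at 15.1 and 11.7 CPM at E21 and 8.37 and 9.22 CPM at E28. Unlike PAX1, it was not called there (edgeR, adjusted p 0.118).

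In fibrous connective tissue 18 of 38 tested genes rose, beside 4.62% of all genes. OGN (osteoglycin), a small leucine-rich proteoglycan, was at 65.3 CPM in E21-ZZ, 80.6 CPM in E21-DZ, 895 CPM in E28-ZZ and 917 CPM in E28-DZ. The breeds were alike at either stage, and OGN rose by 3.63 (SE 0.22; edgeR, adjusted p 0.00247). In thinned barcodes OGN UMIs were found in 8.73% and 9.45% at E21 and 52.9% and 58.8% at E28, beside 3.96%, 2.50%, 11.8% and 12.7% of endothelial-gated barcodes of the same libraries. Without thinning these shares of all barcodes were 17.6%, 21.7%, 67.5% and 71.4%. ASPN (asporin), its relative, was at 0.138 and 0.518 CPM at E21 and 24.1 and 60.5 CPM at E28, a rise of 7.01 (SE 0.59). FBLN5, an organizer of elastic fibres, rose from 2.67 and 5.15 CPM to 28.2 and 40.4 CPM, and FN1, the fibronectin gene, from 161 and 188 CPM to 472 and 513 CPM. PDGFRA, the growth factor receptor of mesenchymal cells, rose by 1.43 (SE 0.18), with 33.4 and 41.5 CPM at E21 and 117 and 86.2 CPM at E28.

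Not every matrix gene passed the test. COL1A1, the main collagen of bone, skin and tendon, was at 133.6 and 194.6 CPM at E21 and 783 and 673 CPM at E28, with an adjusted p of 0.055. LUM (lumican) was at 205 CPM in E21-ZZ, 280 CPM in E21-DZ, 789 CPM in E28-ZZ and 292 CPM in E28-DZ. It was high in E28-ZZ alone and was not called. In 34 of 38 genes of the list both E28 libraries lay above both E21 libraries and in none below, beside 25.8% and 25.6% of all genes. Without E21-ZZ 10 were called, and OGN, COL14A1, ASPN, ECRG4, FBLN5, FN1, PDGFRA, CCDC80, FNDC1 and TGFBI were called in all 4 fits.

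Of 13 tested tendon genes, TNC, THBS4, FMOD, COL11A1, COL14A1 and FGF18 rose, beside 4.62% of all genes. FMOD and COL11A1 are also counted with cartilage matrix and COL14A1 with fibrous connective tissue. THBS4 (thrombospondin 4), a protein of tendon and of its junction with muscle, was at 4.83 CPM in E21-ZZ, 5.85 CPM in E21-DZ, 32.9 CPM in E28-ZZ and 130 CPM in E28-DZ, and rose by 3.71 (SE 0.44; edgeR, adjusted p 0.00859). Both E28 libraries exceeded E21, E28-DZ the most. TNMD (tenomodulin), a late tendon marker, was at 13.7 and 13.3 CPM at E21 and 53.2 and 29.1 CPM at E28 and missed the threshold (adjusted p 0.0631). MKX, another key member of this list, was at 6.76 and 8.20 CPM at E21 and 18.9 and 10.8 CPM at E28. It was not called (edgeR, adjusted p 0.18). SCX, the defining transcription factor of tendon progenitors, had under 1 CPM in each library, at 0.172, 0.370, 0.138 and 0.469 CPM. A ranking was made of called genes with a symbol, at least 10 CPM at a stage and the same sign in both breeds. Its 10 largest rises were those of ASPN, EPYC, ALDH1A1, ECRG4, MAP1LC3C, KAZALD1, C3orf80, CAVIN1, MSC and THBS4, from 3.71 to 7.01 on the log2 scale. ALDH1A1, an enzyme that makes retinoic acid, was at 0.983 and 0.722 CPM at E21 and 21.6 and 51.3 CPM at E28, and CAVIN1, a coat protein of caveolae, was at 2.71 and 3.87 CPM at E21 and 32.9 and 57.4 CPM at E28.

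Genes of the neural tube, which lies beside the somites, were lower at E28. Among called genes with a symbol, at least 10 CPM at a stage and the same sign in both breeds, the 10 largest falls were those of PAX6, ECEL1, DLL3, ROBO3, LHX1, SST, FGFBP3, PLEKHB1, IGFBPL1 and RHBDL3. Of these, ROBO3 is an axon guidance receptor and SST the neuropeptide somatostatin. PAX6, a factor of neural tube progenitors, had 1553 UMIs in all at E21 and 1 at E28, a ratio of 1474 (exact binomial 95% counting interval 264 to 58270). By library it was at 17.9 CPM in E21-ZZ, 9.50 CPM in E21-DZ, 0.0196 CPM in E28-ZZ and 0 in E28-DZ. LHX5, a factor of spinal interneurons, had 767 UMIs at E21 and 0 at E28, and was at least 119-fold lower at E28 against a floor of 3 UMIs per library. DLL3, a Notch ligand of young neurons and also of the unsegmented mesoderm, was at 18.4 and 14.0 CPM at E21 and 0.0982 and 0.0722 CPM at E28. The groups were far apart for each of these genes, and DLL3 fell by 7.57 (SE 0.49) on the log2 scale (edgeR, adjusted p 0.00255). ELAVL2, a neuronal RNA-binding protein, fell from 136 and 79.2 CPM to 6.68 and 19.6 CPM, NEUROD4, a factor of neuron formation, from 14.9 and 6.998 CPM to 0.805 and 2.06 CPM, and LHX1 from 16.1 and 4.07 CPM to 0.196 and 0.0180 CPM.

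Several common neuronal genes did not pass the test. TUBB3, the neuronal tubulin, was at 1026 CPM in E21-ZZ, 351 CPM in E21-DZ, 31.2 CPM in E28-ZZ and 160 CPM in E28-DZ. The stages did not overlap, but the drop was larger in ZZ than in DZ and the adjusted p was 0.0625. STMN2, a protein of growing axons, overlapped between the stages at 1463, 654, 417 and 697 CPM. SOX10, the factor of neural crest and Schwann cells, was at 25.3 and 12.5 CPM at E21 and 10.7 and 10.3 CPM at E28 and was not called, whereas EDNRB, an endothelin receptor of neural crest, fell by 1.77 on the log2 scale. PTN (pleiotrophin), a growth factor that mesenchyme also makes, was the sole neural tube member that rose, from 293 and 487 CPM to 1252 and 1170 CPM. In 23 of 25 neuron genes and 17 of 23 neural tube genes both E28 libraries lay below both E21 libraries, beside 25.6% of all genes. The calls moved with single libraries: 7 neuron genes were called lower without E21-ZZ, 20 without E21-DZ and 6 without E28-ZZ, and for the neural tube 3 without E21-ZZ and 4 without E28-ZZ or without E28-DZ. The summed level of the neuron list was 4476 CPM in E21-ZZ, 1797 CPM in E21-DZ, 699 CPM in E28-ZZ and 1361 CPM in E28-DZ.

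**Figure D4:**
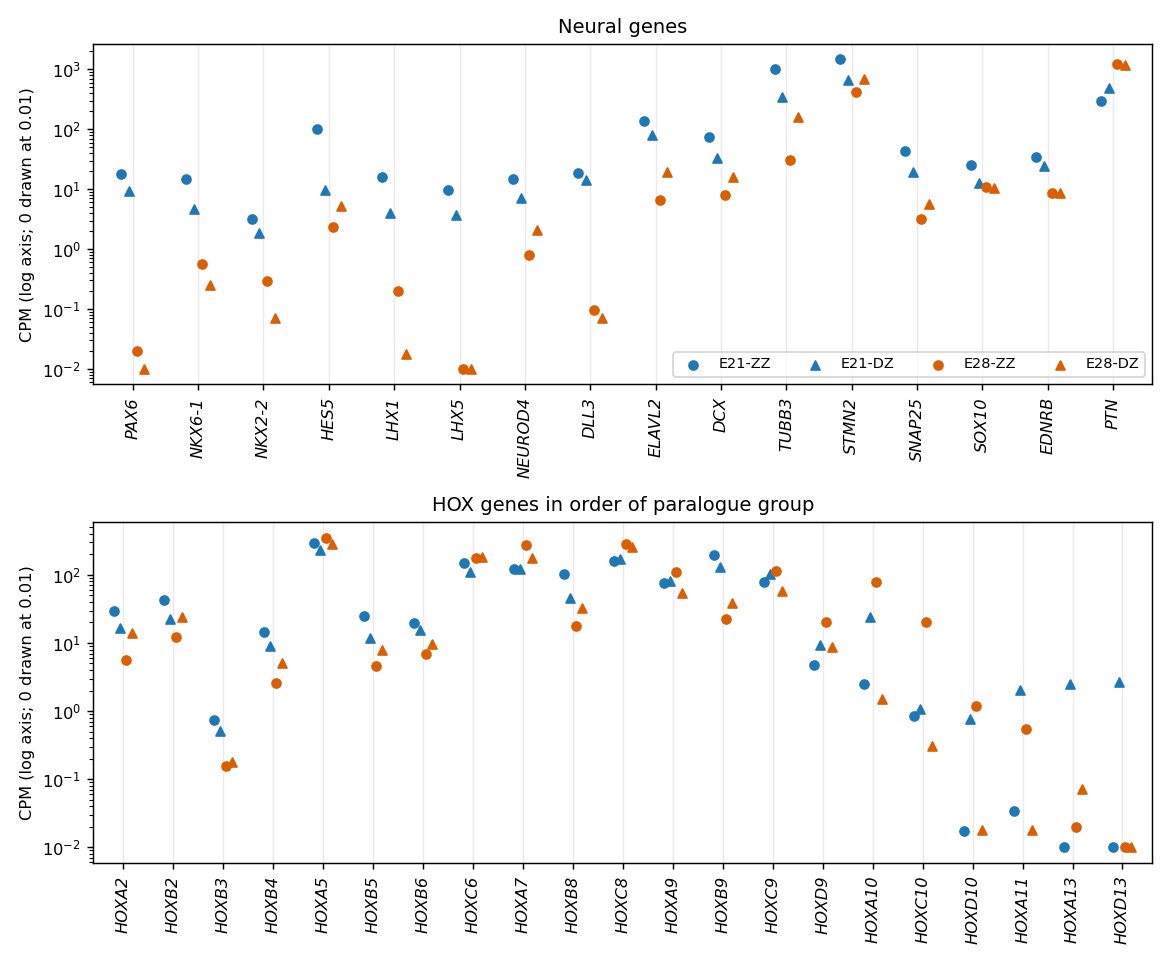
Level of neural genes (top) and HOX genes in order of paralogue group (bottom) in the 4 libraries, in CPM on a log axis with 0 drawn at 0.01 (blue E21, orange E28; circles ZZ, triangles DZ). PAX6, LHX5 and DLL3 lie far lower at E28 in both breeds, HOXB9 goes from 194 and 129 CPM at E21 to 22.3 and 39.0 CPM at E28, and HOXA10 is high in E21-DZ and E28-ZZ only.

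HOX genes encode the position of a segment along the body axis. Of 32 tested, HOXB9 fell (4.4% of all genes did) and none rose in edgeR's fit. An unadjusted p under 0.05 in that fit was reached by 10, beside 4037 of 15295 over all genes. DESeq2 called 7 lower and none higher, beside 1164 and 1252 of 14701 over all genes. HOXB9 was at 194 CPM in E21-ZZ, 129 CPM in E21-DZ, 22.3 CPM in E28-ZZ and 39.0 CPM in E28-DZ, with a change of -2.36 (SE 0.40; edgeR, adjusted p 0.0191), and it was called in 2 of the 4 fits without a library. Lower HOX genes numbered 2 without E21-ZZ or without E28-DZ, 5 without E21-DZ and 0 without E28-ZZ. The neighbouring genes HOXB3, HOXB4, HOXB5 and HOXB6 were also lower in both E28 libraries, with log2 changes of -1.08 to -1.89 and no call. Over the list the median log2 fold change was -0.50, and both E28 libraries lay below both E21 libraries in 11 genes and above in 3, beside 25.6% and 25.8% of all genes. HOXA5, HOXC6 and HOXC8 were at 109 to 351 CPM in all 4 libraries. The genes of the most posterior groups followed neither stage nor breed. HOXA10 was at 2.53 CPM in E21-ZZ, 24.5 CPM in E21-DZ, 79.3 CPM in E28-ZZ and 1.50 CPM in E28-DZ. HOXC10 was at 0.845, 1.06, 20.2 and 0.307 CPM in the same order, and HOXD13 was at 2.67 CPM in E21-DZ and at 0 in the other 3. The libraries differed in HOX genes of the lumbar and more caudal levels within each stage, and the part of axial level in other differences was not tested.

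Among genes of the limb, body wall and lateral mesoderm, more fell than rose. Of 30 tested limb and body wall genes 9 fell and ZFHX4 rose (4.4% and 4.62% of all genes did), and both E28 libraries lay below both E21 libraries in 16, beside 25.6% of all genes. Of the 9 that fell, LHX2 is also counted with the neural tube genes and HAND2 with the cardiac and lateral genes. Of 20 tested cardiac and lateral genes 5 fell and both E28 libraries lay below in 10, while the summed level of that list was 141 and 128 CPM at E21, 77.7 CPM in E28-ZZ and 172 CPM in E28-DZ, the highest. That list shares MYL2, MYH7, TNNT2 and CSRP3 with the sarcomere list, so its sum includes skeletal muscle RNA. Muscle-gated barcodes held 1317 and 1382 UMIs of TNNT2 at E21, 1536 in E28-ZZ and 4363 in E28-DZ. SHOX2, a homeobox factor of the limb, was at 27.0 CPM in E21-ZZ, 32.4 CPM in E21-DZ, 4.57 CPM in E28-ZZ and 8.17 CPM in E28-DZ, and LHX9, of the limb bud and of neurons, was at 4.66 and 12.7 CPM at E21 and 0.294 and 0.0722 CPM at E28. The stages were apart for both, with changes of -2.24 (SE 0.28) and -5.52 (SE 0.76) in edgeR's fit. SALL1, a zinc finger factor of limb and kidney, fell by 2.87, while PRRX1, of limb mesenchyme, overlapped at 39.1, 70.0, 94.9 and 67.9 CPM. HAND1, a factor of heart and lateral mesoderm, had 147 UMIs at E21 and 0 at E28, at least 23.3-fold lower against the floor, and FOXF1, of gut mesoderm, had 212 UMIs at E21 and 3 at E28, a ratio of 67.1 (exact binomial 95% counting interval 22.6 to 328). Without E28-DZ, 4 limb and body wall genes and 3 of the 5 called genes of the cardiac and lateral list were called lower.

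The summed level of the segmentation genes was 443 and 518 CPM at E21 and 441 and 459 CPM at E28. The median log2 fold change of the 31 tested was -0.69, and both E28 libraries lay below both E21 libraries in 11 and above in 4, beside 25.6% and 25.8% of all genes. Of these genes EPHA4 rose (4.62% of all genes did), from 44.7 and 48.5 CPM to 72.8 and 73.8 CPM. DLL3, RIPPLY1 and CYP26A1 fell (4.4% of all genes did), RIPPLY1 from 0.810 and 0.481 CPM to 0.0982 and 0.0541 CPM. DLL3 is also counted with the neuron genes. TBX6 and MESP2, of the forming somite, overlapped at 2.26 to 3.64 CPM and at 4.52 to 8.31 CPM. Of the 4 calls only that of DLL3 was made in every fit without a library, and neither EPHA4 nor RIPPLY1 was called in any.

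Among genes of growth and developmental timing, 7 of 26 fell and 4 rose, beside 4.4% and 4.62% of all genes. LIN28B, an RNA-binding protein that blocks let-7 maturation in early embryos, was at 33.2 CPM in E21-ZZ, 37.8 CPM in E21-DZ, 10.1 CPM in E28-ZZ and 10.8 CPM in E28-DZ. It was alike in both breeds and lower at E28, by 1.77 (SE 0.10) on the log2 scale (edgeR, adjusted p 0.00247), and within the muscle gate it was at 34.6 and 30.7 CPM at E21 and 8.99 and 12.8 CPM at E28. HMGA1, a chromatin protein of proliferating embryonic cells, fell from 645 and 578 CPM to 361 and 221 CPM, and PRTG (protogenin), an early embryonic membrane receptor, from 19.8 and 21.0 CPM to 7.46 and 8.23 CPM. FST rose by 2.06 (SE 0.20), from 15.3 and 13.1 CPM to 49.8 and 71.1 CPM, and MEST, an imprinted mesodermal gene, from 141 and 115 CPM to 231 and 332 CPM. MSTN (myostatin), the brake on muscle growth, was at 10.9 and 13.7 CPM at E21 and 22.4 and 16.8 CPM at E28. The stages did not overlap and it was not called (adjusted p 0.154). LIN28B, PRTG, FST and IGFBP4 were called in all 4 fits without a library. Members lower at E28 numbered 3 without E21-ZZ, 4 without E21-DZ, 3 without E28-ZZ and 2 without E28-DZ, and 2 were called higher without E21-DZ.

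Of the tested genes of mitosis, DNA replication, glycolysis and oxidative phosphorylation, 1 of 33, 1 of 43, 2 of 21 and none of 64 were called, each of them lower (4.4% of all genes were), with medians of -0.35, -0.27, -0.18 and -0.10. Both E28 libraries lay below both E21 libraries in 22 of 33 mitosis genes and 24 of 43 replication genes, beside 25.6% of all genes, and above in 0 and 5. An unadjusted p under 0.05 in edgeR's test was reached by 15 of 33 mitosis, 9 of 43 replication and 6 of 21 glycolysis genes. For oxidative phosphorylation it was reached by 3 of 64, and DESeq2 called none. Over all genes 4037 of 15295 reached it. No endothelial (23 tested) or macrophage (16 tested) gene was called by edgeR, with 9 and 2 genes at an unadjusted p under 0.05. DESeq2 called 5 and 1 of them higher, beside 1252 of 14701 over all genes. KRT18, CLDN4 and CLDN6 of 24 epithelial genes fell, and CA2 and TFRC of 20 erythroid genes fell (4.4% of all genes did), while the globin gene HBZ was at 1545 and 2940 CPM at E21 and 1305 and 1291 CPM at E28, not called. KRT18 and CA2 were called in all 4 fits without a library, and CENPF and ORC1, the calls in mitosis and replication, in none. Of 26 genes induced by tissue dissociation 1 rose (4.62% of all genes did), MYC, from 12.7 CPM in both E21 libraries to 23.5 and 40.7 CPM. Without E28-ZZ 7 of them were called higher and without any of the other 3 libraries none, and the summed level of the list was 10170 CPM in E28-DZ and 6145 to 7062 CPM in the other 3.

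The breeds were then compared in their change from E21 to E28. Over 8522 genes with at least 10 CPM at either stage, the log2 difference had the same sign in ZZ and DZ for 66.4% of genes, and Pearson's r across genes, which are not independent replicates, was 0.63. By at least 2-fold, 6 genes were higher at E28 in ZZ and lower in DZ and 3 the reverse, HOXA10 and HOXC10 among them. With a single library per stage and breed, a difference between the breeds cannot be tested.

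**Figure D5:**
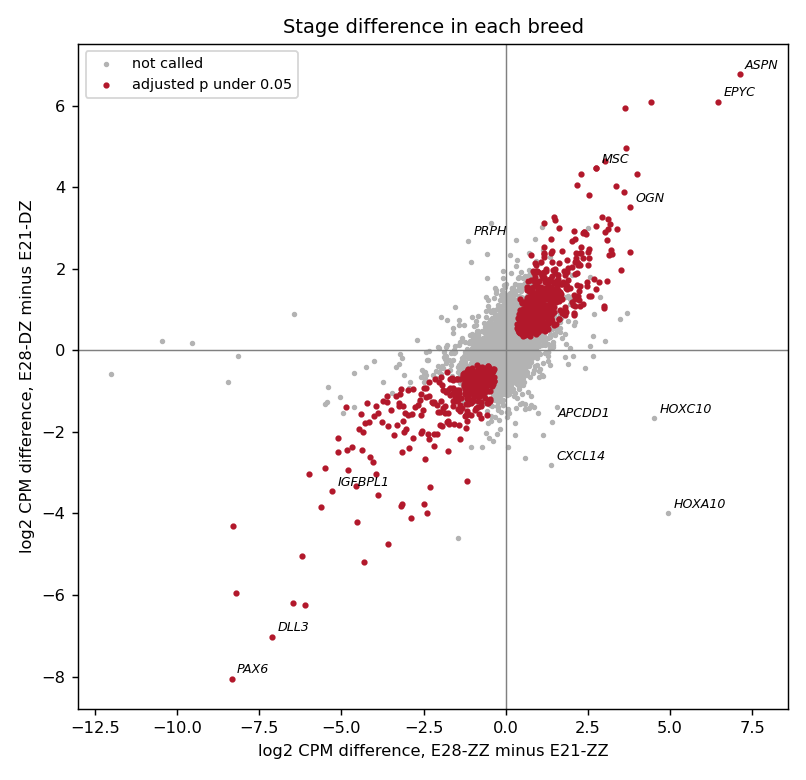
Log2 CPM difference between E28 and E21 in ZZ (horizontal) and in DZ (vertical) for 8522 genes with at least 10 CPM at either stage, with called genes in red. The signs agree for 66.4% of genes, OGN, ASPN and EPYC lie at the upper right, PAX6 and DLL3 at the lower left, and HOXA10 and HOXC10 at the lower right.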

How the data were processed

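The authors ran Cell Ranger (3.0.2 in the matrix headers of these 4 libraries, 3.1.0 at E16) on Sscrofa11.1 and deposited filtered UMI counts per gene and barcode, without normalization or correction between libraries. Doublets were not removed. Symbols missing from the files were filled for 680 IDs from a gene table, and 5781 of 21301 IDs have none. Counts were summed per library and tested with edgeR 4.0.16 (TMM, filterByExpr, quasi-likelihood, R 4.3.3) on all 8 libraries with terms for breed and stage. CPM of whole libraries use the TMM library sizes. CPM in gated barcodes are scaled to the summed UMIs of those barcodes, without TMM. DESeq2 1.42.0 and other filters, limits and sample sets were alternatives. On simulated counts for this comparison (15098 genes), 34% of genes changed 2-fold and 78% of those changed 4-fold were called. Of 777 genes in 25 lists, 697 matched. Named genes were the key members of each list, up to 4 further called members of at least 20 CPM, and the 10 largest rises and falls of at least 10 CPM among called genes with a symbol. Apart from key members, these had the same sign in both breeds. EIF1AY and the genes opposite between breeds were added after their values were seen. Some named genes are counted in their lists but not reported here. Members and lists were chosen with earlier results of these data known. The same breed pairs the libraries across stages by label, from different sows. Python 3.11.15 was used for sums.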

Additional observations from a re-analysis of the deposited data

Results flagged for a closer look

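The genes below, of at least 10 CPM at either stage, differed by 2-fold or more in opposite directions from E21 to E28 in the 2 breeds. Each breed has 1 library per stage, so the difference between breeds was not tested, and no cause was weighed. HOXA10 differed by 4.95 in ZZ and -4.00 in DZ on the log2 scale, and HOXC10, its paralogue, by 4.52 and -1.67. APCDD1, an inhibitor of WNT signals, differed by 1.42 in ZZ and -1.76 in DZ, CXCL14, a chemokine, by 1.39 and -2.82, ADAM22 by 1.57 and -1.40, and ISG12(A) by 1.14 and -2.07. The reverse held for GADD45G, with -1.05 in ZZ and 2.16 in DZ, for PRPH, the neuronal filament peripherin, with -1.14 and 2.69, and for ACHE, acetylcholinesterase, with -1.55 and 1.07. None was called between the stages.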

How the results depend on the processing

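Against 1379 genes called, DESeq2 called 2416 (1360 of the 1379 among them, in the same direction), and the fit on the 4 libraries of E21 and E28 called 306 (292 shared). Leaving out 1 library gave 515 to 990 genes. The breed as a block pairs the stages: with no replicate block 1614 genes were called, 1296 of them shared, and 3 of 81 named genes lost their call. The other alternatives (no TMM, low-count filters, no E16 libraries, barcode limits, thinning, no haemoglobin or mitochondrial genes) gave 927 to 1808 genes. No gene was called in the opposite direction in any of these fits; 1 of the 1379 had its sign turned without a call at a mitochondrial limit of 5%. That limit also left 2 muscle differentiation regulators called higher in place of 6. Sarcomere genes called higher numbered 10 with DESeq2 and 7 after thinning, in place of 3. Over all genes these fits called 1252 of 14701 and 891 of 13676 higher, in place of 706 of 15295. Of the 81 named genes called, 38 lost their call on 4 libraries and 19 to 30 without a single library, none with a turned sign. The main fit had 3 residual degrees of freedom. On the simulated counts, 34% of genes changed 2-fold and 78% of those changed 4-fold were called. Those counts had no breed effect, so the share missed in the real data is not known. The cause of the differences between fits was not tested.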
